A study of Mus musculus with 12 samples.

Results

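The collagen genes of the mouse were followed in the anterior prostate of APT121 and wild type males. They were taken as every gene whose symbol begins with Col, a type number, the letter a and a chain number. Of 19935 genes measured, 44 were collagen genes, and each was read by 1 probe set of the array, called a transcript cluster. Col6a5 and Col6a6 have a further cluster, and their brighter one, by the mean of the 12 arrays, stands for the gene. By textbook class, 11 were fibrillar, 9 were basement membrane collagens, 9 were FACITs and 4 were transmembrane collagens. Of the rest, 6 encode the beaded filament chains of type VI, 3 the short-chain networks of types VIII and X, and 2 fit none of these classes.

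A collagen is a trimer of chains wound into a triple helix. Fibrillar collagens pack into the fibrils that give a tissue its tensile strength, FACITs (fibril-associated collagens with interrupted helices) sit on the surface of fibrils, and type IV collagens form the sheet-like network of the basement membrane. Transmembrane collagens span the cell membrane and hold cells to the matrix. In the prostate the ducts lie on a basement membrane and are wrapped in smooth muscle and fibroblasts, and much of the fibrillar collagen is made by those stromal cells.

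APT121 mice carry T121, a part of the SV40 large T antigen that inactivates the pRb family, driven by the probasin promoter, which is active in prostate epithelium. All mice were males of an F3 generation that mixes C57BL/6J and DBA/2, ate the AIN93G diet from 3 weeks of age and were studied at 12 weeks. The labels give the genotype of wild type mice as B6D2F3 and their tissue as normal, and they describe the APT121 tissue as a PIN lesion (prostatic intraepithelial neoplasia). Each array held pooled RNA of 2 mice, so 8 APT121 mice gave 4 arrays and 16 wild type mice gave 8 arrays, and p-values measure the spread between these pools.

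Values below are log2 intensities on Mouse Gene 1.0 ST arrays. A difference is the APT121 mean less the wild type mean of these log2 values, ± its standard error. A gene was called higher or lower where the adjusted p of limma, taken over all 19935 genes, was under 0.05. Probe sets differ in brightness, so levels are compared between arrays for 1 gene and not between genes. In whole tissue, fewer cells of a type and less RNA per cell cannot be told apart.

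The promoters of 3 members are shown because of what their genes did. Col4a6 had the largest difference of all collagen genes, Col4a5 is its neighbour on chromosome X, transcribed the opposite way, and Col17a1 had the next largest difference. Each window is the 250 bases before the transcription start in RefSeq, build GRCm38.p6, written 5′ to 3′ on the strand of the gene. Capitals mark the motifs GGGCGG and, where present, CCAAT and also TATAAA, read on either strand. The windows are chrX:141474077-141474326 (minus strand) for Col4a6, chrX:141475169-141475418 (plus strand) for Col4a5 and chr19:47692043-47692292 (minus strand) for Col17a1.
Col4a6: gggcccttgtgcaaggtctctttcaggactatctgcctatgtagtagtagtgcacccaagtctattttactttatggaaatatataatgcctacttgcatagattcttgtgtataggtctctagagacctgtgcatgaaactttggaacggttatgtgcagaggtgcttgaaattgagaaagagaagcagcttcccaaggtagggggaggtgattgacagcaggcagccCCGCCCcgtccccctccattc
Col4a5: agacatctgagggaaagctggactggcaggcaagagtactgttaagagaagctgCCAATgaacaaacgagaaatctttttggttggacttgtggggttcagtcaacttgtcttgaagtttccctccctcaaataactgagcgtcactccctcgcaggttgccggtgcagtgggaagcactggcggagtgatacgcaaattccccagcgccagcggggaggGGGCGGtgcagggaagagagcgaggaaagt
Col17a1: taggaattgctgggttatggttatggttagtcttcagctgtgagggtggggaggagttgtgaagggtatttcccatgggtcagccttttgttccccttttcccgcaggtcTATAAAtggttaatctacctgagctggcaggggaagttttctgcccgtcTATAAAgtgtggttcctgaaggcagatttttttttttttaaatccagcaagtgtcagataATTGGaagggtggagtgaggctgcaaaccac

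The starts of Col4a5 and Col4a6 lie 1343 bases apart, with 0 protein-coding genes between them. The Col4a6 window has a GC content of 47.6% and 3 CpG dinucleotides, and the Col4a5 window has 54.0% and 10. Col17a1 has 46.0% and 2. Over the 32851 windows in the RefSeq table, the medians were 52.4% and 6, so Col4a6 and Col17a1 lie below both medians and Col4a5 above both. In the Col4a6 window GGGCGG was found once, on the opposite strand, at bases -21 to -16 from the start. Col4a5 has it at -30 to -25 and CCAAT at -196 to -192. Col17a1 has TATAAA at -140 to -135 and at -91 to -86, and CCAAT on the opposite strand at -31 to -27. No GGGCGG was found in the Col17a1 window.

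A promoter was listed for 35 of the 44 genes, in 38 windows. GGGCGG, the letters of a GC box, was in 22 of those 38 windows and in 32.7% of all windows. CCAAT was in 13 of 38 and in 33.8% of all, and TATAAA was in 5 of 38 and in 12.4% of all. TGANTCA, where N is any base, was in 1 of 38 against 6.75% of all, and TTTNGCGC was in 0 of 38 against 1.13% of all. The windows were not matched for GC content in these counts, and whether any share differs from that of all windows was not tested. A match describes the letters of a window and shows no bound factor.

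Collagen genes were lower in APT121 prostate, with called genes in every class. By limma, 36 of the 44 were lower, 0 were higher and 8 were not called. Over all genes tested, 30.0% were lower and 22.8% were higher. At an unadjusted p under 0.05, 0 collagen genes were higher by limma and 0 by the exact permutation test over the arrays. The fitted difference was negative for 43 of the 44, with a median of -0.38 against -0.09 over all genes. All 4 APT121 arrays lay below all 8 wild type arrays for 23 collagen genes (52.3%), against 16.9% of all genes.

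Most of these differences were small. Of the 44 collagen genes, 3 were both called lower and at least 1.5-fold lower, a share close to the 6.34% of all genes. They were Col4a6, Col17a1 and Col18a1. Without Col4a6 the largest fall in the family was 1.58-fold, that of Col17a1. A larger fall than that of Col4a6 was fitted for 31 genes (0.16% of all), and a larger fall than that of Col17a1 for 1007 (5.05%).

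The share of genes called lower varied with brightness. With all genes cut into 3 equal sets by mean intensity, in the brightest set 32.1% of genes were lower, and all 9 collagen genes there were lower with a median difference of -0.49. In the middle set 35.7% of genes were lower, and 26 of its 32 collagen genes were, with a median of -0.36. In the dimmest set 22.3% of genes were lower, as was 1 of its 3 collagen genes. The 1015 olfactory receptor genes, little transcribed outside the nose and read here as a gauge of dim probes, also leaned down: 16.2% were lower, 0 were higher and their median difference was -0.11. Only 1 collagen gene, Col10a1, had means below the 95th percentile of those genes in both genotypes (4.1487 in wild type and 3.9937 in APT121). Col28a1, at 4.15 in wild type and 3.89 in APT121, and Col19a1, at 4.26 and 3.97, lay close to these limits.

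**Figure D1:**
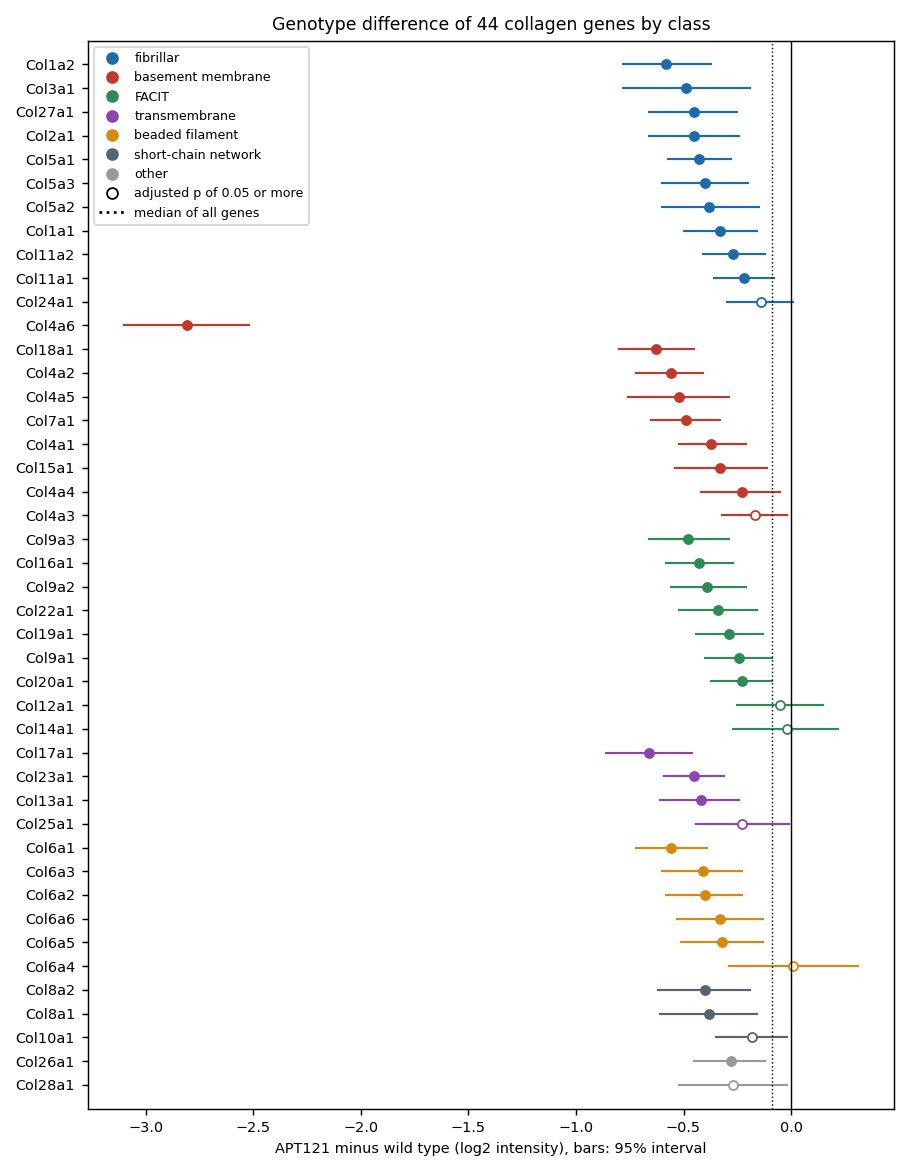
Difference between APT121 and wild type (log2 intensity, horizontal axis) for each of the 44 collagen genes, coloured by class; points are limma estimates from 4 APT121 and 8 wild type arrays, bars are 95% intervals and open points have an adjusted p of 0.05 or more. Col4a6 stands at -2.81, while the other genes lie between -0.66 and 0.01, and the dotted line is the median of all genes at -0.09.

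Among basement membrane collagens, 8 of 9 were lower and 0 were higher, with a median difference of -0.49. Col4a6, a chain of the type IV network found under many epithelia and around smooth muscle, read 5.94, 6.04, 6.48 and 5.49 in the 4 APT121 arrays. Its 8 wild type arrays ran from 8.50 through a median of 8.83 to 8.95. Every APT121 array was over 2 units below the lowest wild type array. The mean went from 8.80 ± 0.15 (SD, n = 8) in wild type to 5.99 ± 0.41 (SD, n = 4) in APT121. That is a difference of -2.81 ± 0.14, or 7.00-fold lower, with a 95% interval of -3.10 to -2.52 and an adjusted p of 7.78e-11 by limma. The APT121 mean was 14.3% of the wild type mean on the linear scale.

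Col4a5, whose chain shares a network with that of Col4a6, read 6.05, 6.11, 6.37 and 5.66 in APT121 and 6.30, 6.60 and 6.77 (lowest, median and highest) in wild type. The highest APT121 array lay inside the wild type range, so the groups overlapped. Its mean went from 6.57 ± 0.14 to 6.05 ± 0.29, a difference of -0.52 ± 0.11 with an adjusted p of 0.000913 by limma.

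Col4a1 and Col4a2 encode the chains of the type IV network found in nearly all basement membranes, including those of blood vessels. Col4a1 read 6.62, 6.73, 6.57 and 6.66 in APT121, all under the wild type values of 6.83, 6.99 and 7.19 (lowest, median and highest). Its difference was -0.37 ± 0.07, from 7.01 ± 0.12 to 6.64 ± 0.07, with an adjusted p of 0.000472 by limma. Col4a2 read 6.54, 6.40, 6.55 and 6.34 against 6.90, 7.00 and 7.21, again without overlap. Its difference was -0.56 ± 0.07, from 7.02 ± 0.11 to 6.46 ± 0.10, with an adjusted p of 6.7e-06 by limma. The genes share a head-to-head promoter region, with starts 21 bases apart on opposite strands in RefSeq.

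The other type IV genes, Col4a3 and Col4a4, are best known from the glomerular basement membrane of the kidney. Col4a3 differed by -0.17 ± 0.07 and was not called (adjusted p = 0.0562 by limma, 95% interval -0.32 to -0.02). Col4a4 was called at -0.23 ± 0.09 (adjusted p = 0.0353 by limma). This call did not hold without 1 array for 8 of the 12 arrays, with the adjusted p then between 0.053 and 0.0774, nor with wild type arrays 5 to 8 as the controls (-0.14, adjusted p = 0.181).

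**Figure D2:**
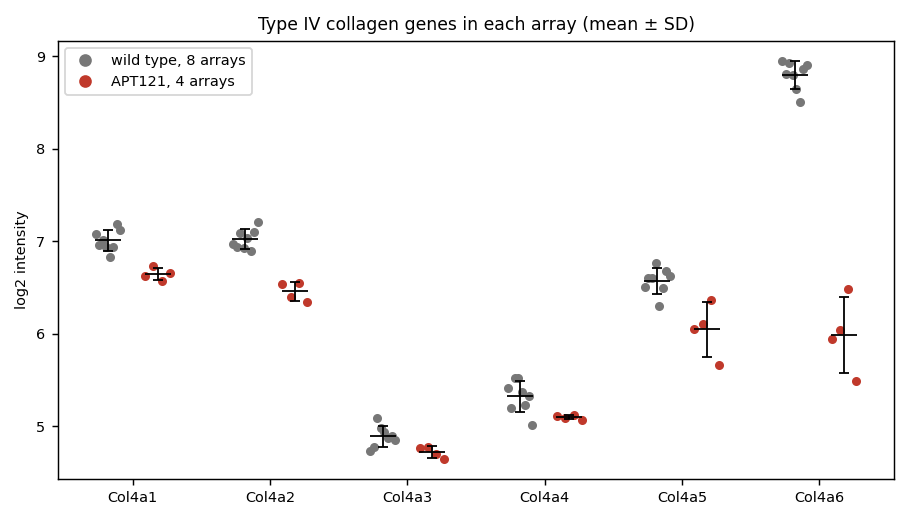
Log2 intensity of the 6 type IV collagen genes in each of 8 wild type arrays (grey) and 4 APT121 arrays (red), with mean and SD as bars. The groups of Col4a6 are separated by a wide gap, those of Col4a1 and Col4a2 by a narrow one, and those of Col4a3, Col4a4 and Col4a5 overlap.

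Col18a1, whose chain is a basement membrane collagen and the source of endostatin, read 6.02, 5.89, 6.05 and 5.87 in APT121. Wild type arrays read 6.31, 6.59 and 6.77 (lowest, median and highest), so the groups did not overlap. Its mean went from 6.58 ± 0.15 to 5.96 ± 0.09, a difference of -0.63 ± 0.08 or 1.54-fold lower (adjusted p = 1.08e-05 by limma). Col7a1, which forms the anchoring fibrils under stratified epithelia, was lower by -0.49 ± 0.07 (adjusted p = 4.42e-05 by limma), also without overlap. Col15a1, a close relative of Col18a1, was lower by -0.33 ± 0.10 (adjusted p = 0.0135 by limma). The call of Col15a1 was lost without APT121 array 4, its lowest at 6.05 (-0.21, adjusted p = 0.0691), and when wild type arrays 1 to 4 were the controls (-0.26, adjusted p = 0.082).

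Of 11 fibrillar collagens, 10 were lower and 0 were higher, with a median difference of -0.40. Type I collagen is the main fibril of most connective tissue, and its chains come from Col1a1 and Col1a2. Col1a1 read 8.99, 8.93, 9.22 and 8.80 in APT121 and 9.16, 9.33 and 9.48 (lowest, median and highest) in wild type. APT121 array 3 lay within the wild type range and the other APT121 arrays lay below it. The difference was -0.33 ± 0.08, from 9.32 ± 0.10 to 8.98 ± 0.18, or 1.26-fold lower (adjusted p = 0.00294 by limma).

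Col1a2 read 8.56, 8.60, 8.80 and 8.28 in APT121, all below the wild type values of 9.0, 9.09 and 9.42. Its difference was -0.58 ± 0.10, from 9.13 ± 0.15 to 8.56 ± 0.21, or 1.49-fold lower (adjusted p = 0.000118 by limma). Col3a1, the single chain of type III collagen, which runs with type I in soft tissue, read 8.01, 8.13, 8.36 and 7.67 against 8.29, 8.42 and 8.98. Here the groups overlapped through APT121 array 3, and the wild type values were the most spread among the type I and III genes. The difference was -0.49 ± 0.14, from 8.53 ± 0.25 to 8.04 ± 0.29 (adjusted p = 0.00776 by limma). Wild type arrays 7 and 8 were the highest for Col3a1, and with wild type arrays 1 to 4 as the controls the difference was -0.31 with an adjusted p of 0.0606.

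Col27a1, a fibrillar gene known from cartilage, read 5.78, 5.35, 5.90 and 5.68 in APT121 and 6.00, 6.10 and 6.32 in wild type. It was lower by -0.45 ± 0.10, from 6.13 ± 0.12 to 5.68 ± 0.24 (adjusted p = 0.000877 by limma), with no overlap. Col2a1, the main collagen of cartilage, had a difference of -0.45 ± 0.10 as well, with overlapping groups (adjusted p = 0.00133 by limma). The type V genes, whose chains help to set the width of type I fibrils, were lower. Col5a1 stood at -0.43, Col5a2 at -0.38 and Col5a3 at -0.40. Their groups did not overlap, but for Col5a2 the highest APT121 array and the lowest wild type array both read 5.49 after rounding. Differences were smaller for the type XI genes, at -0.22 for Col11a1 and -0.27 for Col11a2. Col11a1 was no longer called without APT121 array 1 (-0.18, adjusted p = 0.0575). Col24a1, at -0.14 ± 0.07, was not called (adjusted p = 0.104 by limma, 95% interval -0.30 to 0.01).

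Of 9 FACIT genes, 7 were lower and 0 were higher, with a median difference of -0.29. Col9a3, a chain of type IX collagen, known from the surface of cartilage fibrils, read 5.73, 5.68, 6.13 and 5.80 in APT121. Its wild type arrays read 6.17, 6.32 and 6.49 (lowest, median and highest). APT121 array 3 came close to the lowest wild type array, without overlap. The difference was -0.48 ± 0.09, from 6.32 ± 0.11 to 5.84 ± 0.20 (adjusted p = 0.000262 by limma).

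Col16a1, a FACIT made by fibroblasts and smooth muscle among other cells, read 5.95, 5.80, 6.03 and 5.82 in APT121 against 6.12, 6.32 and 6.47. It was lower by -0.43 ± 0.07, from 6.33 ± 0.10 to 5.90 ± 0.11 (adjusted p = 0.000127 by limma). Col9a2 read 5.96, 5.55, 5.87 and 5.94 against 6.11, 6.22 and 6.35. As for Col9a3 and Col16a1, its groups did not overlap, and the difference was -0.39 ± 0.08, from 6.22 ± 0.10 to 5.83 ± 0.19 (adjusted p = 0.000968 by limma). Smaller falls were fitted for Col22a1 (-0.34), Col19a1 (-0.29), Col9a1 (-0.24) and Col20a1 (-0.23). Without APT121 array 2, its lowest, Col9a1 was not called (-0.19, adjusted p = 0.0591).

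Col12a1 and Col14a1, the FACITs that decorate type I fibrils in tendon, skin and other dense tissue, were the FACIT genes not called. Col12a1 differed by -0.05 ± 0.09 (adjusted p = 0.668 by limma), with a 95% interval of -0.25 to 0.15. Col14a1 differed by -0.02 ± 0.12 (adjusted p = 0.892 by limma), with a 95% interval of -0.27 to 0.22. Both intervals include 0 and reach to falls the size of those of Col9a1 and Col20a1. Col14a1 was split among the wild type arrays, with 5.79 to 6.11 in arrays 1 to 4 and 6.22 to 6.42 in arrays 5 to 8, and the APT121 arrays read 6.14, 6.06, 6.27 and 6.01. Its difference was 0.18 (adjusted p = 0.112) against the first set of wild type arrays and -0.22 (adjusted p = 0.0382) against the other, so no direction can be given for it.

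Of 4 transmembrane collagens, 3 were lower and 0 were higher, with a median difference of -0.44. Col17a1, a hemidesmosome component through which basal epithelial cells hold to the basement membrane, read 5.62, 5.48, 5.96 and 5.67 in APT121. Its wild type arrays read 6.14, 6.39 and 6.50 (lowest, median and highest), above every APT121 array. The mean went from 6.34 ± 0.13 to 5.68 ± 0.20, a difference of -0.66 ± 0.09 or 1.58-fold lower (adjusted p = 1.79e-05 by limma).

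Col23a1 read 5.78, 5.72, 5.88 and 5.78 in APT121 against 6.09, 6.23 and 6.35 in wild type. Its APT121 arrays lay close together and below all wild type arrays, with a difference of -0.45 ± 0.07, from 6.24 ± 0.10 to 5.79 ± 0.07 (adjusted p = 3.2e-05 by limma). Col13a1, found at cell contacts such as the neuromuscular junction, read 5.06, 4.84, 5.24 and 4.88 against 5.26, 5.46 and 5.63. It was lower by -0.42 ± 0.09, from 5.43 ± 0.12 to 5.00 ± 0.18 (adjusted p = 0.000679 by limma), with APT121 array 3 just under the lowest wild type array. Col25a1 differed by -0.23 ± 0.10 and was not called (adjusted p = 0.068 by limma).

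Type VI collagen forms beaded filaments around many cells, and 5 of its 6 genes were lower, with a median difference of -0.37. Col6a1 read 7.13, 7.12, 7.22 and 6.80 in APT121, below the wild type values of 7.55, 7.61 and 7.76. It was lower by -0.56 ± 0.08, from 7.63 ± 0.08 to 7.07 ± 0.18 (adjusted p = 1.64e-05 by limma). Its partner chains followed: Col6a3 read 6.99, 7.09, 7.21 and 6.70 against 7.25, 7.43 and 7.55, a difference of -0.41 ± 0.09, from 7.41 ± 0.10 to 7.00 ± 0.21 (adjusted p = 0.000826 by limma). Col6a2 read 6.52, 6.67, 6.74 and 6.38 against 6.83, 7.00 and 7.19, a difference of -0.40 ± 0.08, from 6.98 ± 0.12 to 6.58 ± 0.16 (adjusted p = 0.000599 by limma). In all 3 genes APT121 array 4 was the lowest and array 3 the highest of its group, and no APT121 array reached the wild type range.

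The other type VI genes, Col6a4, Col6a5 and Col6a6, lie next to each other on chromosome 9. Col6a5 was lower by -0.32 and Col6a6 by -0.33 on their brightest clusters (adjusted p = 0.00722 and 0.00799 by limma). On the further cluster the difference was -0.25 for Col6a5 (exact permutation p = 0.204) and 0.01 for Col6a6 (exact permutation p = 0.897). With the mean of both clusters Col6a6 was not called (-0.16, adjusted p = 0.0755), so its fall was read by 1 of 2 clusters. The further Col6a6 cluster was near the level of dim probes, at 4.14 in wild type and 4.15 in APT121. Whether this level bears on the difference between the clusters was not tested. With wild type arrays 1 to 4 as the controls Col6a5 was not called (-0.20, adjusted p = 0.0633). Col6a4, the single collagen gene without a negative fitted difference, stood at 0.01 ± 0.14 (adjusted p = 0.943 by limma). APT121 array 4 was its highest of all arrays at 5.99, and without that array the difference was -0.16.

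Of the short-chain collagens, the type VIII genes, known from vessel walls and the cornea, were lower. Col8a2 read 5.13, 5.05, 4.95 and 5.09 in APT121 against 5.18, 5.46 and 5.83 in wild type, a difference of -0.40 ± 0.10, from 5.46 ± 0.21 to 5.05 ± 0.08 (adjusted p = 0.00342 by limma). Col8a1 read 5.04, 4.78, 5.00 and 5.11 against 4.91, 5.41 and 5.59, a difference of -0.38 ± 0.10, from 5.37 ± 0.20 to 4.98 ± 0.14 (adjusted p = 0.00593 by limma). The groups of Col8a1 overlapped through wild type array 5, and with wild type arrays 5 to 8 as the controls it was not called (-0.31, adjusted p = 0.0641). Col10a1, a marker of hypertrophic cartilage near the level of dim probes, differed by -0.18 and was not called (adjusted p = 0.0615 by limma). Outside the named classes, Col26a1 read 5.68, 5.53, 5.87 and 5.76 in APT121 against 5.86, 5.98 and 6.17 and was lower by -0.28 ± 0.08, from 5.99 ± 0.11 to 5.71 ± 0.14 (adjusted p = 0.00602 by limma). Col28a1 differed by -0.27 ± 0.12 (adjusted p = 0.068 by limma) and was not called.

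The APT121 arrays were not alike in their collagen levels. Array 3 was the highest of the 4 for 28 of the 44 genes, array 2 was the lowest for 21 and array 4 for 18. The array mean of the 9 basement membrane genes was 5.90, 5.88, 6.03 and 5.71 in the APT121 arrays and 6.47 to 6.66 in wild type. For the fibrillar genes it was 6.26, 6.16, 6.42 and 6.19 against 6.51 to 6.74, for the FACITs 5.42, 5.29, 5.50 and 5.43 against 5.61 to 5.77, and for the transmembrane genes 5.21, 5.01, 5.40 and 5.19 against 5.58 to 5.73. In each of these classes the highest APT121 array mean lay below the lowest wild type array mean. With any 1 array left out, between 34 and 38 collagen genes were called lower.

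**Figure D3:**
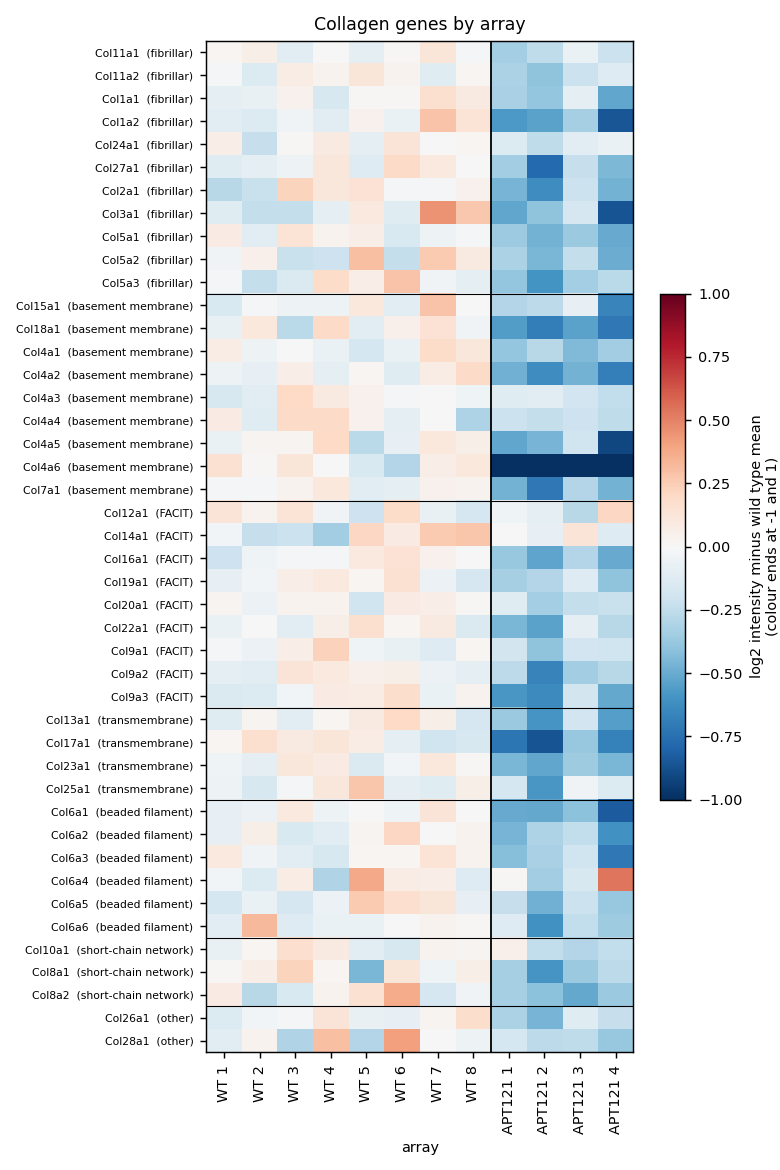
Log2 intensity of each collagen gene (rows, grouped by class) in each array (columns, WT for wild type), minus the wild type mean of that gene; blue is lower, red is higher and the colour ends at -1 and 1. The 4 APT121 columns are blue in most rows, Col4a6 is at the dark end in all 4, and Col6a4 in APT121 array 4 is the strongest red among them.

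Whether chains of one trimer or one gene pair moved by the same amount was asked with the log2 ratio of their clusters within each array. The level of such a ratio depends on the probes, so only its change between genotypes is read. Over 10 pairs, 2 ratios changed by the exact permutation test over the 495 splits of the arrays, each at the smallest p it can give (0.00202, adjusted p = 0.0101 over the pairs, two-sided).

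The Col4a5 to Col4a6 ratio read 0.11, 0.07, -0.11 and 0.17 in APT121, and its wild type arrays ran from -2.44 to -2.01. It went from -2.22 ± 0.15 to 0.06 ± 0.12, a change of 2.28, so the neighbours fell by unequal amounts on these clusters. The Col4a5 cluster was the dimmer, at a wild type mean of 6.57 against 8.80 for Col4a6. Whether brightness affects the size of a measured fall was not tested. The Col1a1 to Col1a2 ratio read 0.43, 0.33, 0.42 and 0.51 in APT121 and 0.06 to 0.26 in wild type. It went from 0.18 ± 0.07 to 0.43 ± 0.07, a change of 0.24, with Col1a2 falling further than Col1a1 and no overlap of the groups. APT121 array 2 stood closest to wild type in that ratio.

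The other 8 ratios did not pass. The Col4a1 to Col4a2 ratio changed by 0.20 and the Col6a1 to Col6a3 ratio by -0.14, both with an adjusted p of 0.106 by the exact permutation test over the pairs. Col6a1 to Col6a2 stood at -0.15 (adjusted p = 0.198), Col1a1 to Col3a1 at 0.16 (0.29), Col4a1 to Col4a5 at 0.16 (0.352), Col4a3 to Col4a4 at 0.06 (0.566), Col5a1 to Col5a2 at -0.05 (0.765) and Col8a1 to Col8a2 at 0.02 (0.909), all exact permutation tests. A p above the threshold does not show that these pairs moved alike. The Col4a1 to Col4a2 ratio was called without APT121 array 3 (adjusted p = 0.0455), as was Col4a1 to Col4a5 (0.29, adjusted p = 0.0202). The Col6a1 to Col6a3 ratio was called without wild type array 1 (adjusted p = 0.0202).

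**Figure D4:**
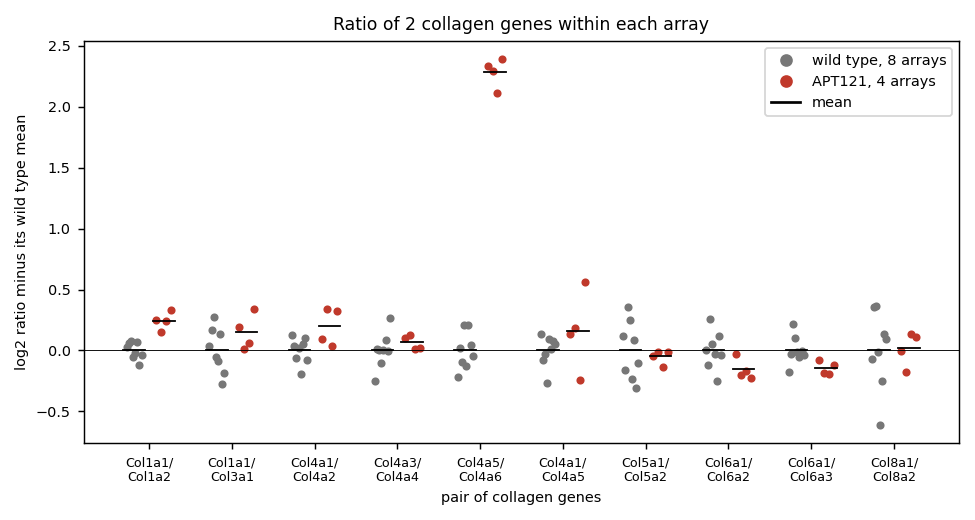
Log2 ratio of each of 10 pairs of collagen genes within an array, minus the wild type mean of the pair (vertical axis), for 8 wild type arrays (grey) and 4 APT121 arrays (red), with group means as bars. Col4a5/Col4a6 stands apart, with APT121 changed by 2.28, and the groups of Col1a1/Col1a2 are also separate, with a change of 0.24.

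Genes whose products make collagen were followed in lists. Of 19 measured genes for hydroxylation, folding and export, 14 were lower and 2 were higher, with a median difference of -0.36. P4ha3 and Colgalt2, both called lower, were near the level of dim probes. Creb3l1, a transcription factor of the endoplasmic reticulum known to drive type I collagen genes in osteoblasts, was lower by -1.22 ± 0.11 (adjusted p = 8.79e-08 by limma). Its 4 APT121 arrays lay between 4.55 and 4.67, and its wild type arrays between 5.48 and 6.11. P3h3, a prolyl 3-hydroxylase family member, was lower by -1.04 ± 0.07 (adjusted p = 2.53e-09 by limma). P4ha1, a catalytic subunit of the prolyl 4-hydroxylase that stabilises the triple helix, was lower by -1.0 ± 0.10 (adjusted p = 5.6e-07 by limma).

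The collagen chaperone gene Serpinh1 (HSP47) was lower by -0.52 ± 0.08 (adjusted p = 8.13e-05 by limma). P4ha2, the other main catalytic subunit of prolyl 4-hydroxylase, went the opposite way from P4ha1, at 0.44 ± 0.10 (adjusted p = 0.00209 by limma). Plod3, a lysyl hydroxylase, was also higher, at 0.25 ± 0.09 (adjusted p = 0.0261 by limma). The groups overlapped for P4ha2 and for Plod3.

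Of 7 genes of procollagen processing, 6 were lower and 0 were higher, with a median of -0.29. Of the 6, Tll1 was near the level of dim probes, at 3.56 in wild type and 3.27 in APT121. Tll2 (4.24 and 3.95) and Pcolce2 (4.29 and 3.80) lay close to it. The largest falls were those of Pcolce and Pcolce2, enhancers of the C-propeptide protease, at -0.48 ± 0.10 each (adjusted p = 0.00104 and 0.000591 by limma), followed by Adamts3, an N-propeptide protease, at -0.33 ± 0.09 (adjusted p = 0.00419 by limma). Bmp1, the C-propeptide protease itself, differed by -0.08 ± 0.06 and was not called (adjusted p = 0.262 by limma). Of 4 cross-linking enzymes, Lox (-0.49 ± 0.10, adjusted p = 0.0007 by limma) and Loxl1 (-0.35 ± 0.09, adjusted p = 0.00572) were lower, and 0 were higher.

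Of 11 proteins that organise fibrils, 9 were lower and 0 were higher, with a median of -0.34. Fmod, which encodes fibromodulin, a small proteoglycan on fibrils, was lower by -1.20 ± 0.10 (adjusted p = 5.86e-08 by limma). Dcn, which encodes decorin, was lower by -0.93 ± 0.15 (adjusted p = 6.59e-05 by limma), and Sparc, a collagen-binding matrix protein gene, by -0.76 ± 0.10 (adjusted p = 1.55e-05 by limma). For each of these 3 genes no APT121 array reached the wild type range.

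Of 9 collagen receptors measured, 3 were lower (33.3%) and 2 were higher (22.2%), with a median of -0.10, close to the 30.0%, 22.8% and -0.09 of all genes. Itga2, the collagen-binding integrin chain typical of epithelia and platelets, was higher by 1.72 ± 0.10 or 3.30-fold (adjusted p = 9.6e-10 by limma). Its APT121 arrays lay between 6.32 and 6.67 and its wild type arrays between 4.46 and 5.08. Itgb1, its beta chain, was higher by 0.31 ± 0.06 (adjusted p = 0.000271 by limma). Itga1, the collagen-binding integrin chain typical of smooth muscle and other mesenchymal cells, was lower by -0.56 ± 0.10 (adjusted p = 0.000198 by limma), and Ddr2, a receptor tyrosine kinase for fibrillar collagen, by -0.58 ± 0.09 (adjusted p = 3.96e-05 by limma).

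**Figure D5:**
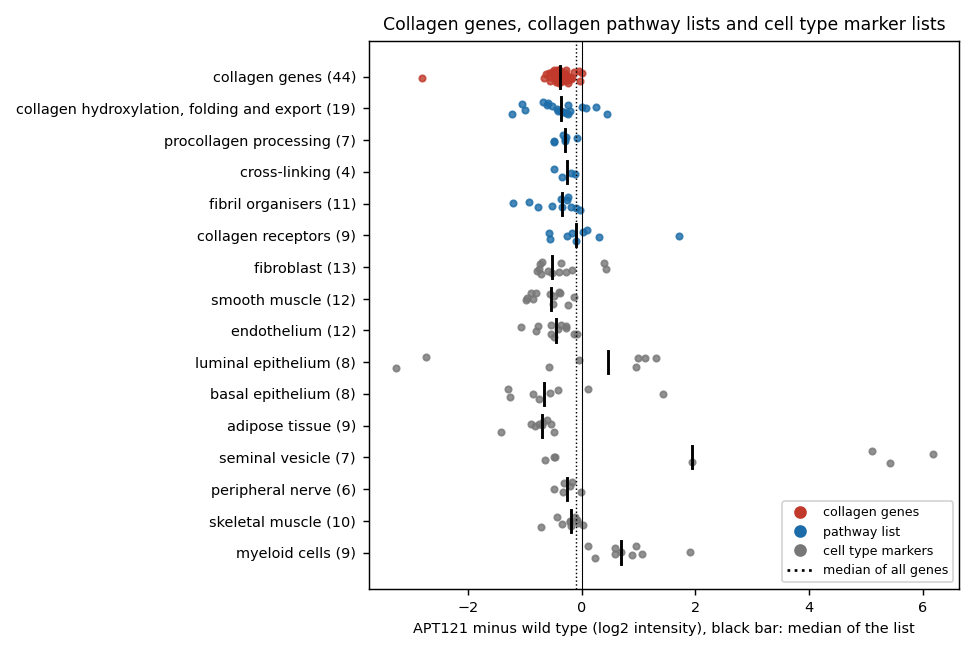
Difference between APT121 and wild type (log2 intensity, horizontal axis) of each gene in the collagen family, the collagen pathway lists and the cell type marker lists, with the number of measured genes in brackets and the median of each list as a black bar. Medians were -0.38 for collagen genes, -0.52 for fibroblast, -0.53 for smooth muscle, -0.45 for endothelial and -0.66 for basal epithelial markers, and 0.70 for myeloid markers.

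Markers of the cells that make collagen moved with the collagen genes, and their part in the result was not tested. Of 13 fibroblast markers 9 were lower and 1 was higher (median -0.52), and their mean log2 level was 6.15 to 6.45 in APT121 arrays and 6.61 to 6.81 in wild type arrays. Their summed level, which a few bright genes dominate, was 11.23 to 11.24 against 11.12 to 11.31 and overlapped. Gsn, the higher one, stood at 0.39.

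Of 12 smooth muscle markers 11 were lower and 0 were higher (median -0.53), and their summed level was 12.87 to 13.32 against 13.60 to 13.81. Of 12 endothelial markers 10 were lower and 0 were higher (median -0.45), with a summed level of 9.18 to 9.27 against 9.64 to 9.84. These stromal and vascular medians were at least as far below 0 as the collagen median of -0.38. Adipose markers were lower too, in 8 of 9 genes (median -0.70), with summed levels of 8.44 to 8.67 against 8.85 to 10.01.

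Of 8 basal epithelial markers 6 were lower and 1, Itgb4, was higher (1.43 ± 0.10, adjusted p = 4.01e-09 by limma). The remaining marker was not called. Differences in the list ran from -1.29 to 1.43, with a median of -0.66. The summed level of the list was 9.62 to 9.77 in APT121 against 9.94 to 10.18. Krt5 and Krt15, named after their values were seen, had the largest falls of the list. Krt5, the basal keratin, read 6.73, 7.14, 7.37 and 6.19 in the APT121 arrays and 7.93 to 8.47 in wild type, and Krt15 read 5.70, 6.07, 6.53 and 5.16 against 6.72 to 7.41. Krt5 differed by -1.29 ± 0.17 (adjusted p = 9.73e-06 by limma) and Krt15 by -1.25 ± 0.19 (adjusted p = 3.31e-05 by limma), against -2.81 ± 0.14 for Col4a6. Whether these differences differ from one another was not tested.

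Luminal epithelial markers, of the cell type that lines the ducts, went both ways, with 4 of 8 higher and 3 lower. They were bright in every array of this tissue. Their summed level, which a few bright genes dominate, was 14.22 to 14.54 in APT121 and 14.92 to 15.08 in wild type. The median difference of the luminal list was 0.46. Its mean log2 level overlapped, at 10.81 to 11.22 in APT121 arrays and 11.15 to 11.36 in wild type arrays. Myeloid markers were higher in 8 of 9 genes (median 0.70, summed level 10.16 to 11.07 against 9.29 to 9.65). Peripheral nerve markers were lower in 3 of 6 genes and skeletal muscle markers in 4 of 10, against 30.0% of all genes. Whether the shares of these short lists differ from that of all genes was not tested. Of the lower nerve markers, Cdh19 was near the level of dim probes. The skeletal muscle markers Myh1, Myh2, Myh4 and Pvalb were also near that level and were not called. Of 7 seminal vesicle transcripts, 3 (Svs2, Svs5 and Pate4) were higher and 0 were lower, and their summed level was 10.60 to 14.13 in APT121 and 6.47 to 13.95 in wild type. All 7 were highest among the wild type arrays in array 6. Svs3a, Svs3b and Svs6 were low in every APT121 array, with highest values of 2.89, 3.61 and 3.26.

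Wild type array 7 had the highest adipose mean (6.35), and it was the highest wild type array for 8 of the 44 collagen genes. They were Col1a1, Col1a2, Col3a1, Col4a1, Col6a1, Col6a3, Col11a1 and Col15a1, so the type I and III genes were among them. Array 6 was the highest for 12, of which Col6a2 was the brightest. Whether adipose content goes with collagen levels was not tested. Without wild type arrays 5, 6 and 7, 36 collagen genes were called lower, a set that lost Col4a4 (adjusted p = 0.0742 by limma) and gained Col10a1 (adjusted p = 0.045 by limma).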

How the data were processed

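Total RNA of anterior prostate was hybridised to 12 Affymetrix Mouse Gene 1.0 ST arrays. The authors deposited linear intensities, 1 for each array and transcript cluster, made with RMA per the submitters' processing notes (software version not given in the sources used here). This step equalises the distributions of the arrays, whose medians ran from 32.1 to 33.7. Log2 values were taken here. Of 28815 clusters, 21780 had 1 gene symbol, 1605 several and 5430 none listed. The highest-mean cluster per gene gave 19935 genes, and no filter was applied.

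The genotype difference was fitted in R 4.3.3 with lmFit and eBayes of limma 3.58.1 (no other term, two-sided, Benjamini-Hochberg adjustment over all genes), checked on simulated data. Exact permutation tests were used for the log2 ratios and the further clusters, and as an unadjusted alternative for single collagen genes. Alternatives changed the normalisation, a filter on dim genes, variance moderation, array weights, clusters, arrays, the replicate block and the threshold. The number of arrays limits the precision. The summed level of a list is log2 of the sum of its linear intensities. Same-numbered deviations of APT121 and wild type arrays correlated at -0.026 to 0.067, so the numbers were not taken as pairs.

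Members and lists were chosen with earlier results of these data known. Every collagen gene was named. Array values and full statistics were given for up to 3 called members per class with the largest difference, for Col1a1, Col1a2, Col3a1, Col4a1, Col4a2, Col17a1 and Col18a1, and full statistics for up to 3 genes of each pathway list; Serpinh1, Bmp1, P4ha2, Plod3, Itgb1, Krt5, Krt15, Itgb4, Gsn, Col4a5 and the seminal vesicle genes were added after their values were seen. The T121 transgene is not analysed here.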

Additional observations from a re-analysis of the deposited data

Results flagged for a closer look

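In 88 checks of a single array against the rest of its group, 4 arrays stood apart by Dixon's ratio, the gap to the nearest array over the range of the group. Chance flags about 1 in 20 groups. The ratio was 0.931 for Col9a1 in APT121 array 2, which read 4.41 with the nearest array at 4.61. For Col10a1 it was 0.86, in APT121 array 1, which read 4.07 with the nearest at 3.78. For Col6a6 it was 0.657, in wild type array 2, at 6.41 with the nearest at 6.12. For Col8a1 it was 0.626, in wild type array 5, at 4.91 with the nearest at 5.33.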

How the results depend on the processing

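Of the 36 collagen genes called lower, 28 kept call and direction in every refit of all genes that tested them, 24 of them in all 23 refits and 4 (Col8a2, Col13a1, Col19a1 and Col22a1) in those without the filter on the dimmest 50%, which removed them; the others were Col3a1, Col4a4, Col6a5, Col6a6, Col8a1, Col9a1, Col11a1 and Col15a1, and the cause was not tested. The collagen median ran from -0.43 to -0.33. With the replicate number as a block (replicate block), 31 collagen genes were lower, with Col3a1 at -0.31 (adjusted p = 0.0787 by limma). This block treats same-numbered arrays as pairs, which the main fit does not. Only wild type arrays 1 to 4 share a number with an APT121 array. The block difference therefore equals that against wild type arrays 1 to 4, and the 2 settings are not separate checks of it. With a minimum of 1.5-fold, by construction a smaller set, 3 collagen genes were lower (fibrillar 0, basement membrane 2, FACIT 0, transmembrane 1), and of all genes 2288 were higher and 1264 lower. At an adjusted p under 0.01, 3949 genes were lower. Without the dimmest 50% of genes, 3327 genes and 4 FACIT genes were lower, since fewer were tested. Leaving out 1 array in turn gave 34 to 38 collagen genes lower, and 4150 to 4523 genes higher and 4829 to 5984 lower of all. Over the same omissions the change in log2 ratio ran from 0.15 to 0.25 for Col4a1 to Col4a2, 0.03 to 0.29 for Col4a1 to Col4a5, -0.10 to 0.00 for Col5a1 to Col5a2, -0.17 to -0.11 for Col6a1 to Col6a3 and -0.07 to 0.08 for Col8a1 to Col8a2. Without wild type arrays 5, 6 and 7 the last was -0.13. Directions turned only for members not called. Col12a1 was 0.01 against wild type arrays 5 to 8, and -0.14 to 0.02 without single arrays. Col14a1 was 0.18 with wild type arrays 1 to 4 as controls, and so also with the replicate block. It was 0.09 when wild type arrays 5, 6 and 7 were left out, and -0.07 to 0.02 without single arrays. Col6a4 was -0.04 after median centring or repeated quantile normalisation, -0.08 against wild type arrays 5 to 8, and -0.16 to 0.13 without single arrays. Signal near background limits Col10a1, and Col19a1 and Col28a1 lie close to it.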
